A study of Mus musculus with 2 samples.

Results

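The 9 genes described here are Krt8, Krt18, S100a6, Sfn, Lgals1, Anxa3, Fgfbp1, Cryab and Phlda1, of the 32285 genes listed for these libraries. They are genes of simple epithelia and of epithelial stress, and they were picked by symbol after earlier results from the same cells had been seen. Levels, shares and co-expression of the 9 genes in these libraries all count as used in that choice, so every value below is a description and none is a test. The cells were E14 mouse embryonic stem cells of 129/Ola background, grown on gelatin in medium with serum and leukaemia inhibitory factor. One culture received a small interfering RNA (siRNA) that served as control and is called control. The other received siRNA against Son, which encodes an RNA-binding protein of nuclear speckles, and is called sonKD. In both, the siRNA was carried by a Lipofectamine reagent, transfection came a day after seeding and harvest a day later, and the cells were frozen, thawed and sorted with the dead-cell dye 7-AAD before droplet barcoding. With a single library on each side there is no replicate, and what the siRNA did and how the preparations differed cannot be told apart.

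Keratin 8, a type II keratin, and keratin 18, a type I keratin, pair to form the intermediate filaments of simple epithelia, and the pair is among the first keratins made in the mouse embryo, in trophectoderm. Embryonic stem cells are themselves epithelial in kind, joined by E-cadherin, and carry keratin RNA. S100a6 encodes a small calcium-binding protein, Anxa3 a calcium-dependent phospholipid-binding annexin, and Lgals1 galectin-1, which binds beta-galactosides. Sfn encodes 14-3-3 sigma, an epithelial member of the 14-3-3 family and a known p53 target. Cryab encodes the small heat shock chaperone alpha-B crystallin, Fgfbp1 a secreted carrier that frees fibroblast growth factors from the matrix, and Phlda1 a pleckstrin-homology-like protein induced by growth factor signalling.

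Cells were barcodes that reached 2500 UMIs and 1000 genes and had no more than 10% of their UMIs from mitochondrial genes, and 4978 control cells and 2731 sonKD cells were kept. A UMI (unique molecular identifier) is a random tag that lets each captured molecule be counted once. These cells summed to 40902904 UMIs in control and 32032551 in sonKD, with medians of 7737.5 and 11612 UMIs per cell and of 3.65% and 4.10% mitochondrial UMIs. Only 2 cell barcodes occurred in both libraries. Levels are in CPM, a gene's UMIs per 1000000 UMIs, over the summed cells of a library, and 95% intervals in parentheses cover counting error only. Son itself had 169 CPM (165 to 173) in control against 106 CPM (102 to 109) in sonKD, a log2 ratio of sonKD over control of -0.67 (-0.73 to -0.61). The labelled cell type had its defining markers: Pou5f1 stood at 1104 and 916 CPM, Sox2 at 352 and 336 CPM and Nanog at 170 and 153 CPM in control and sonKD.

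The keratin pair lies in the keratin cluster of chromosome 15 (GRCm38, GENCODE M21). Krt8 is on the minus strand at chr15:101996698-102004482 with 9 exons, and Krt18 is on the plus strand at chr15:102028180-102032027 with 7 exons. The genes point away from each other, with 23697 bases between them. S100a6 (chr3:90612882-90624181, plus strand) has 3 exons, and Fgfbp1 (chr5:43978858-43981779, minus strand) has 1 exon. The promoter windows of these 4 genes, each with a match to a motif marked below, are shown. Each runs from 250 bases before to 50 bases after the start of the gene in RefSeq on GRCm38.p6, 5′ to 3′ on the strand of the gene. Capitals mark, on either strand, a core promoter element with the letters TATAAA, a motif of Krüppel-like factors with the letters GGGNGTGG, or an E-box with the letters CACGTG.

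Krt8 promoter, chr15:102004293-102004592, minus strand: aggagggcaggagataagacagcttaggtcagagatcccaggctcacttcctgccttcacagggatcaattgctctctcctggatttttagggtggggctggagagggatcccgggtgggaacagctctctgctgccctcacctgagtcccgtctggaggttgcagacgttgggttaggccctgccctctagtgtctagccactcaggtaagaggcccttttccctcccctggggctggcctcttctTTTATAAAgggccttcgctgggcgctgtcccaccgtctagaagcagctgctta
Krt18 promoter, chr15:102027966-102028265, plus strand: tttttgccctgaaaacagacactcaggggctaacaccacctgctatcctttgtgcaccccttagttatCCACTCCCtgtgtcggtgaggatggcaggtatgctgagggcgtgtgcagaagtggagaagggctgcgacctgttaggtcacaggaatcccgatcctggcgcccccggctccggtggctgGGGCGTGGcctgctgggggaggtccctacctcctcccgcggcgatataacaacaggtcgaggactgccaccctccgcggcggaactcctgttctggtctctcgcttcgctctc
S100a6 promoter, chr3:90612644-90612943, plus strand: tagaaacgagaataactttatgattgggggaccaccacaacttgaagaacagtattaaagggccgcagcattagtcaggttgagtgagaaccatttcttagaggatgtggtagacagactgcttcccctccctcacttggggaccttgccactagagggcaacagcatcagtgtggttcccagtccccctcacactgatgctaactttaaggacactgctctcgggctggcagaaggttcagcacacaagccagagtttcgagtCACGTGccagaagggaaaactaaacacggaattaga
Fgfbp1 promoter, chr5:43981750-43982049, minus strand: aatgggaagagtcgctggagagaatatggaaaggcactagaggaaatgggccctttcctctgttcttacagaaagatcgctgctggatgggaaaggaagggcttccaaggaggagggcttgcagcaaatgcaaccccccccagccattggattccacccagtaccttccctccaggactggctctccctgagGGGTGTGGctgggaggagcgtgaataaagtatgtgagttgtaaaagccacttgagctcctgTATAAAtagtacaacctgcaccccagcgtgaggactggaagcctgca

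In the Krt8 window the TATAAA letters occur on both strands, overlapping each other across the start given by RefSeq, and GENCODE places the outer end of the gene further upstream. In the Fgfbp1 window they lie just after the start. TATAAA occurs in 13.6% of the 32851 windows of the same length in the table, GGGNGTGG in 17.6% and CACGTG in 7.15%. The Krt18 window has 2 matches to GGGNGTGG, 1 on each strand, and the Fgfbp1 window has 1. S100a6 has the single CACGTG match. Windows were found for 5 of the 9 genes, and the fifth, Sfn, had no match to any motif searched. The AP-1 motif with the letters TGANTCA (7.81% of all windows), the TEAD motif with the letters GGAATG (14.7%) and the p53 decamer (8.36%) had no match in any of the 5 windows, which says only that these letters are not there.

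The other genes lie apart: Lgals1 at chr15:78926725-78930465 (plus strand, 4 exons), Sfn at chr4:133600556-133602168 (minus, 1 exon), Anxa3 at chr5:96793339-96845966 (plus, 13 exons), Cryab at chr9:50751325-50756636 (plus, 4 exons) and Phlda1 at chr10:111506286-111508645 (plus, 2 exons). Cryab overlaps Hspb2 on the opposite strand, Krt8 overlaps Gm36026 and Phlda1 overlaps Gm28592 likewise, and Anxa3 overlaps Gm42603 on the same strand. How reads of overlapping genes were assigned is not given in the sources used here. Of the 31-base words in the last 500 bases of Krt18, 10.4% also occur in other genes, chiefly Gm5200 and Gm7943. What part of the Krt18 count this touches was not measured. The shared part was 1.28% for Sfn and 0.535% for Anxa3, and 0 for the other 6 genes.

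All 9 genes had a higher level in the sonKD library than in control. Log2 ratios ran from 0.21 for Krt8 to 1.24 for S100a6, with a median of 0.58, and none of the 9 intervals included 0. Of all 8063 genes that averaged 10 CPM or more, 25.1% had a ratio above 0, and the median ratio was -0.12, with the 5th and 95th percentiles at -0.40 and 0.25. Of the 9 genes, 7 were at least 1.3-fold higher in sonKD, against 2.64% of all genes. At least 1.3-fold lower were 6.02% of all genes and none of the 9. Because the genes were picked with these levels known, the counts describe the choice and say nothing of its weight. Krt8 and Sfn were the 2 genes inside the 1.3-fold line, and Anxa3, at 1.35-fold, was the nearest beyond it.

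The keratin partners had unlike ratios, with intervals for counting error that did not overlap. Over sonKD cells, at 2500 UMIs drawn from each, the variance over mean was 2.87 for Krt8 and 5.83 for Krt18. The intervals leave out this spread between cells, so whether the partners differ beyond it cannot be told from them. Krt8 had 1505 UMIs in control, or 36.8 CPM (35.0 to 38.7), and 1364 in sonKD, or 42.6 CPM (40.4 to 44.9). Its log2 ratio was 0.21 (0.10 to 0.32), which placed it 509th of the 8063 genes. Krt18 had 829 UMIs in control, or 20.3 CPM (18.9 to 21.7), and 1086 in sonKD, or 33.9 CPM (31.9 to 35.98). The Krt18 ratio was 0.74 (0.61 to 0.87), the 41st of all genes. Without the 14 control and 19 sonKD cells that had 3 or more keratin UMIs of 2500, a setting chosen after the data were seen, the Krt8 ratio was -0.06 and the Krt18 ratio 0.31. Leaving out cells by their own keratin count lowers these ratios by construction where the sonKD library has the longer tail.

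S100a6 had the highest ratio of the 9 and the 14th highest of all genes. It stood at 102 CPM (98.8 to 105) in control from 4167 UMIs and at 241 CPM (236 to 246) in sonKD from 7718 UMIs, a log2 ratio of 1.24 (1.187 to 1.297). Anxa3, the other calcium-dependent gene, stood at 20.3 CPM (19.0 to 21.8) from 832 control UMIs and at 27.5 CPM (25.7 to 29.4) from 882 sonKD UMIs. Its ratio was 0.44 (0.30 to 0.58). Lgals1 stood at 117 CPM (114 to 120) from 4779 UMIs and at 175 CPM (170 to 179) from 5596 UMIs, with a ratio of 0.58 (0.52 to 0.64). The S100a6 ratio without the keratin-high cells was 1.17, that of Anxa3 0.37 and that of Lgals1 0.50, so S100a6 and Lgals1 stayed past 1.3-fold and Anxa3 did not.

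Among the stress-related genes, Sfn had 2375 UMIs in control and 2262 in sonKD. This gave 58.1 CPM (55.7 to 60.4) and 70.6 CPM (67.7 to 73.6), a ratio of 0.28 (0.20 to 0.37). Cryab stood at 22.3 CPM (20.9 to 23.8) from 913 UMIs and at 31.7 CPM (29.8 to 33.7) from 1015 UMIs. The Cryab ratio was 0.51 (0.38 to 0.64), and without the keratin-high cells it came to 0.38, just under the 1.3-fold line. Of the 2 genes tied to growth factors, Fgfbp1 stood at 9.68 CPM (8.75 to 10.7) in control from 396 UMIs and at 15.2 CPM (13.9 to 16.6) in sonKD from 487 UMIs, a ratio of 0.65 (0.46 to 0.85). Phlda1 stood at 13.5 CPM (12.4 to 14.6) from 551 UMIs and at 20.1 CPM (18.6 to 21.7) from 644 UMIs, a ratio of 0.58 (0.41 to 0.74). Leaving out the keratin-high cells gave 0.66 for Fgfbp1 and 0.50 for Phlda1.

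RNA outside cells was gauged in droplets of 100 to 500 UMIs. S100a6 stood there at 173 and 293 CPM in control and sonKD, Lgals1 at 238 and 263 CPM, and Cryab at 28.3 and 41.3 CPM, each above its level in cells. Fgfbp1 was above its level in cells in control alone, at 10.4 CPM (8.98 to 12.0), an interval that overlapped that of cells. The keratins stood below their levels in cells in both libraries, Krt8 at 33.3 and 27.5 CPM and Krt18 at 17.3 and 20.1 CPM. So did Sfn, at 47.2 and 43.8 CPM, Anxa3, at 20.0 and 19.7 CPM, and Phlda1, at 9.31 and 9.39 CPM. In control the intervals of droplets and cells overlapped for Krt8, Krt18 and Anxa3, so no order is read there. No cell type that should lack these genes was at hand to set a background share, and the part of free RNA in the cell levels was not tested beyond the subtraction given with the alternatives.

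**Figure D1:**
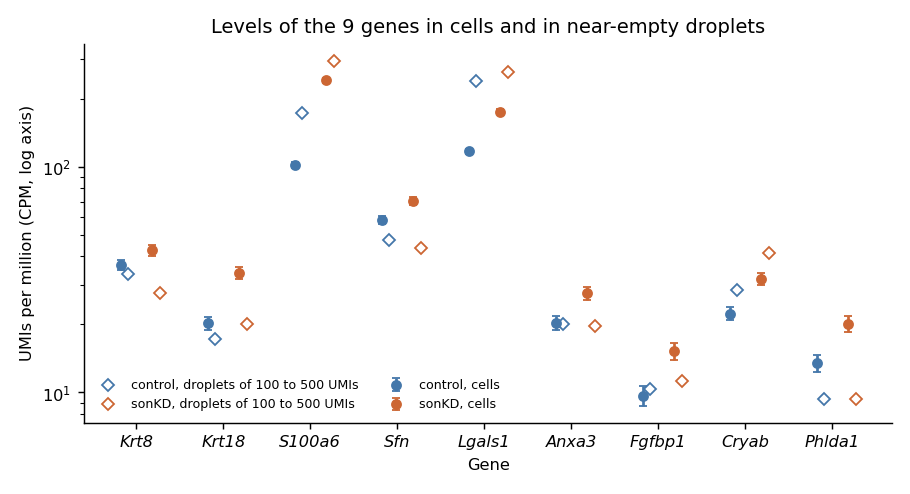
Levels of the 9 genes in CPM (log axis) in control and sonKD. Filled points are cells, with 95% Poisson intervals, and open diamonds are droplets of 100 to 500 UMIs. The sonKD cells lie above the control cells for each gene, and the diamonds of S100a6, Lgals1 and Cryab lie above the cells in both libraries.

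The libraries differed in depth per cell, so ratios were also taken among cells of like depth. In cells of 5000 to under 10000 UMIs, 3475 in control and 675 in sonKD, the 9 genes together stood at 398 and 862 CPM. In cells of 10000 to under 20000 UMIs, 940 and 1770, they stood at 367 and 600 CPM. All 9 genes were higher in sonKD in both ranges, Krt8 by 0.35 and 0.23 on the log2 scale and S100a6 by 1.75 and 1.17. The shallowest cells, 514 and 172 of under 5000 UMIs, gave 620 and 1060 CPM. There Sfn was the exception, at -0.22 (-0.74 to 0.27), and Krt18 stood at 2.42 (1.82 to 3.04) from 38 and 64 UMIs. The deepest range, of 20000 UMIs and more, held 49 and 114 cells and 379 and 636 CPM. By mitochondrial share, the 9 genes stood at 388 and 725 CPM under 3%, at 389 and 618 CPM from 3% to 5%, and at 461 and 726 CPM from 5% to 10%.

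**Figure D2:**
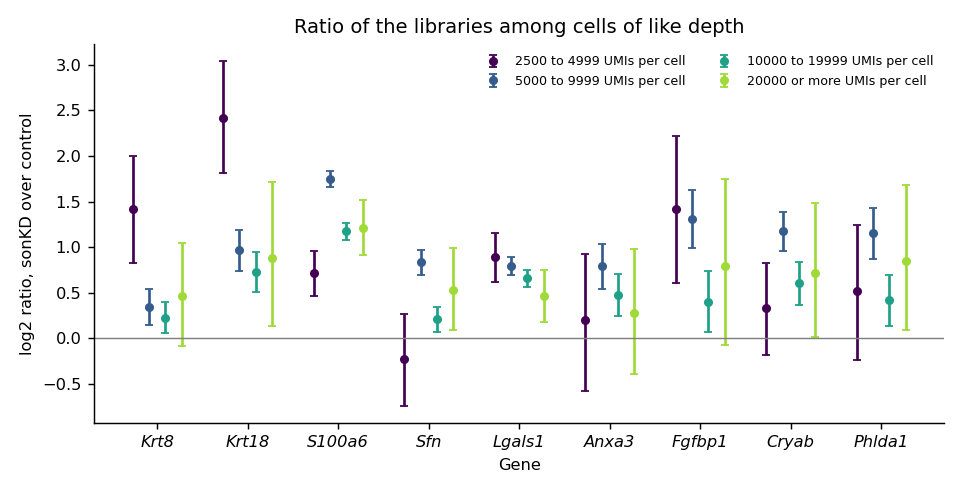
Log2 ratio of sonKD over control for the 9 genes in 4 ranges of UMIs per cell, with 95% intervals for counting error. All points lie above 0 except Sfn in the shallowest cells, at -0.22, and the widest intervals belong to the shallowest and the deepest cells.

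To compare shares of cells at equal depth, 2500 UMIs were drawn at random from each cell. S100a6 was then found in 802 of 4978 control cells, or 16.1% (15.1 to 17.2), and in 687 of 2731 sonKD cells, or 25.2% (23.5 to 26.8), a difference of 9.04 points (7.115 to 10.9985). Lgals1 was found in 23.4% and 28.8%, a difference of 5.36 points (3.28 to 7.45). Anxa3 differed by 2.36 points (1.26 to 3.52), from 4.52% to 6.88%, and Cryab by 1.76 points (0.60 to 2.97), from 5.52% to 7.29%. The differences of Phlda1, 3.09% against 4.43%, and of Krt18, 4.38% against 5.68%, were 1.34 points (0.43 to 2.30) and 1.296 points (0.26 to 2.38). The intervals of these 6 differences lay above 0, for counting error in 1 random draw. At 2 UMIs or more, those of S100a6, Lgals1, Anxa3 and Cryab lay above 0. Krt18 then differed by 0.28 points (-0.05 to 0.68) and Phlda1 by 0.04 points (-0.17 to 0.31). With the cells most like doublets left out and UMIs drawn anew, Krt18 differed by 0.28 points and Anxa3 by 1.14 points. S100a6, Lgals1, Cryab and Phlda1 then stayed within the intervals given.

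For the other 3 genes the interval at 1 UMI or more included 0. Krt8 was found in 7.67% and 8.31%, which differ by 0.64 points (-0.63 to 1.95). Sfn was found in 11.1% and 11.9%, a difference of 0.75 points (-0.75 to 2.29). Fgfbp1 was found in 2.23% and 2.97%, a difference of 0.74 points (-0.016 to 1.54). At 5000 UMIs, with 514 control and 172 sonKD cells too shallow to enter, Krt8 was found in 15.5% and 13.8% of cells, so its share goes against its CPM and no order is read from it. Before thinning, shares were 22.8% and 28.1% for Krt8, 12.2% and 19.6% for Krt18, 34.1% and 53.5% for S100a6, 26.7% and 33.7% for Sfn, and 51.6% and 69.0% for Lgals1. They were 13.6% and 21.9% for Anxa3, 5.75% and 11.5% for Fgfbp1, 14.5% and 23.5% for Cryab, and 9.36% and 16.7% for Phlda1, with the deeper sonKD cells higher for each gene.

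The genes differed in how their molecules were spread over cells. In thinned cells, Krt18 reached at most 9 UMIs in a control cell and 22 in a sonKD cell, and its variance over its mean was 1.79 and 5.83, where counts of equal cells give a value near 1. Cells with 3 or more Krt18 UMIs were 7 in control and 12 in sonKD, and they held 14.7% and 39.6% of all Krt18 UMIs. Krt8 reached 11 and 13 UMIs, with a variance over mean of 1.37 and 2.87, and its cells of 3 or more UMIs held 5.88% and 26.4% of its UMIs. S100a6, at a higher level, had 3 or more UMIs in 110 control cells (2.21%) and 177 sonKD cells (6.48%), and 10 or more in 8 and 26 cells. Its variance over mean was 3.15 and 5.32, in sonKD below that of Krt18, and it reached 19 and 25 UMIs. Sfn had a variance over mean of 1.89 and 2.95 and Lgals1 of 1.42 and 2.78. Phlda1 stood at 1.10 and 1.05 and Anxa3 at 1.18 and 1.20, where a value near 1 from so few UMIs per cell says little of how evenly a gene is spread.

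**Figure D3:**
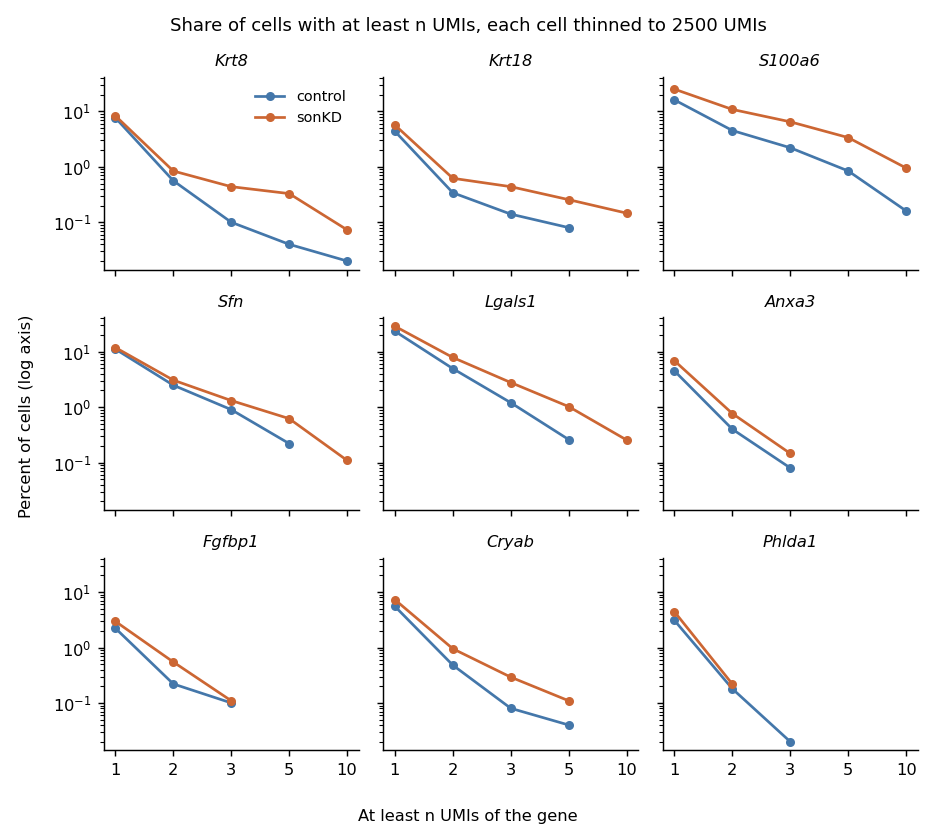
Share of cells (log axis, percent) with at least 1, 2, 3, 5 or 10 UMIs of each gene after thinning to 2500 UMIs, in control and sonKD. Points at 0 cells are not drawn. The curves of Krt8 and Krt18 start close together and part from 3 UMIs on, those of S100a6 lie apart from 1 UMI on, and Phlda1 ends at 3 UMIs in control and 2 in sonKD.

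Most cells had UMIs of few of the genes. None of the 9 was found in 47.5% of thinned control cells and 40.4% of sonKD cells. At least 3 of the 9 were found in 259 control cells, or 5.20% (4.60 to 5.86), and in 259 sonKD cells, or 9.48% (8.41 to 10.6). At least 5 were found in 35 control cells, or 0.703% (0.490 to 0.976), and in 46 sonKD cells, or 1.68% (1.24 to 2.24). All 9 were found in 2 sonKD cells and in no control cell, which allows a share of up to 0.0741%. Summed over the 9 genes, the median cell had 1 UMI in each library, the 99th percentile was 9 in control and 18 in sonKD, and the highest cells had 45 and 76.

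The genes were found together in the same cells more often than independence gives. Of the 36 pairs, all 36 had more shared cells than the product of their shares, in each library, with a median ratio of 1.77 in control and 1.95 in sonKD. The ratio was not taken for pairs of other genes, so the count of 36 cannot be set against a share of all pairs. Because co-expression counts as used in picking the genes, the count describes the choice. Krt8 and Krt18 were found together in 31 control cells where independence gives 16.7, a ratio of 1.85 (1.26 to 2.63). In sonKD they were found together in 35 cells where it gives 12.9, a ratio of 2.72 (1.89 to 3.78). S100a6 and Sfn shared 163 control cells, a ratio of 1.82 (1.55 to 2.12), and 160 sonKD cells, a ratio of 1.96 (1.67 to 2.28). The ratio was higher in sonKD for 22 of the 36 pairs. Pairs with few shared cells were loose: Krt8 and Cryab shared 23 control cells, a ratio of 1.09 (0.69 to 1.64).

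Pearson's r over cells, on the logarithm of 1 plus the thinned count, was low for most pairs. Its median over the 36 pairs was 0.096 in control (4978 cells) and 0.17 in sonKD (2731 cells), and it ran from 0.026 to 0.24 and from 0.055 to 0.40. The cells of a library share its preparation and free RNA, and in counts this sparse a weak correlation is no finding. Krt8 with Krt18 had the highest r in sonKD, 0.40, against 0.13 in control, and over 5 other random thinnings the value ran from 0.32 to 0.39 and from 0.11 to 0.16. Without the keratin-high cells it came to 0.037 and 0.036, although leaving out cells by their keratin sum lowers this r by construction. S100a6 with Sfn stood at 0.24 in control and 0.37 in sonKD, and S100a6 with Lgals1 at 0.18 and 0.38.

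**Figure D4:**
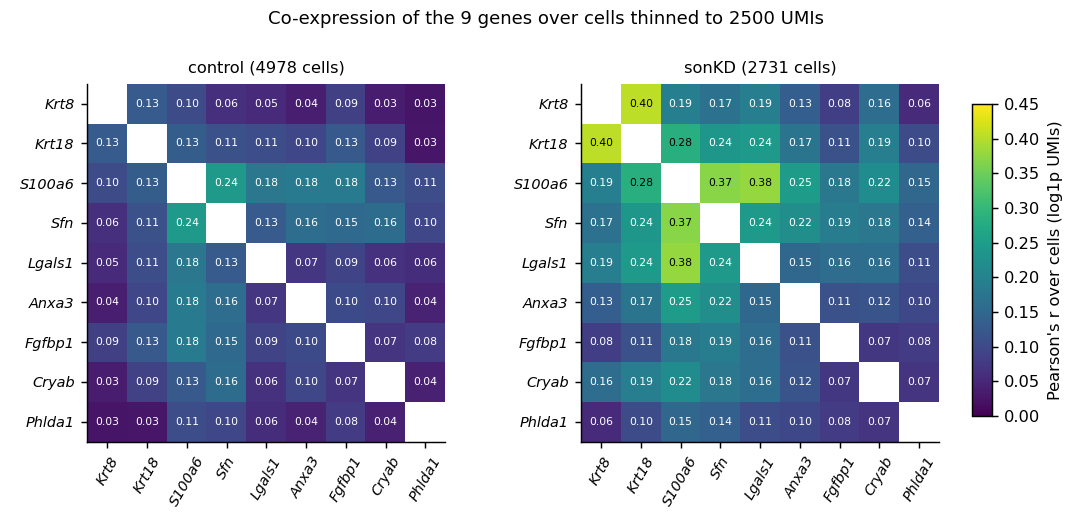
Pearson's r over cells for each pair of the 9 genes, on log1p UMIs of cells thinned to 2500 UMIs, in 4978 control cells and 2731 sonKD cells. The brightest square in sonKD is Krt8 with Krt18 at 0.40, where control has 0.13, and S100a6 has the brightest row in control.

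Likeness over cells was taken with the 5664 genes found in at least 5% of thinned cells of each library, which left out Krt18, Anxa3, Fgfbp1 and Phlda1 as partners of others. Among them, S100a6 was the gene most like 7 of its 8 partners over cells, by the lower r of the 2 libraries. Cryab was the exception, with Sfn first, at 0.16. For Krt18 the order was S100a6 at 0.13, Krt8 at 0.13, Sfn, Lgals1 and the annexin Anxa2. For Krt8 it was S100a6 at 0.10, Sfn, Tspo, Lgals1 and S100a11. Anxa3 had S100a6, Sfn, Cryab, Glud1 and Lgals1, and Fgfbp1 had S100a6, Sfn, Lgals1, Peg10 and Krt8. S100a6 itself had Sfn at 0.24, Lgals1 at 0.18, Gpx1, Actb and Tmsb4x. Lgals1 had S100a6, Sfn, Mylpf, Tmsb4x and Actb, and Sfn had S100a6, Cryab, Lgals1, Perp and Id1. Perp, an epithelial desmosome gene and p53 target, was among the first 5 for Sfn, Cryab and Phlda1, and the p53 target Mdm2 was among those of Cryab. Phlda1 also had Sdc4 and 1700007K13Rik, and Cryab had Sdc4. For the sum of the 9 genes, the 10 most alike outside them were Gpx1 at 0.14, Tmsb4x, Sdc4, Mdm2, Id1, Sparc, Perp, Actb, Mylpf and 1700007K13Rik at 0.12.

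These genes did not differ between the libraries in 1 direction. The log2 ratio was 0.40 (0.34 to 0.45) for the syndecan Sdc4 and 0.47 (0.37 to 0.57) for Perp. It was 0.15 for Gpx1 and Tmsb4x and 0.05 for Sparc. Mdm2 was lower in sonKD, at -0.14 (-0.20 to -0.08), and so was the BMP-responsive Id1, at -0.60 (-0.65 to -0.55). Genes that accompanied the 9 genes from cell to cell could thus have a lower level in the library where the 9 were higher.

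Cells were then ordered by their keratin UMIs, Krt8 and Krt18 together, of 2500. In control 4409 cells had 0, 510 had 1, 45 had 2 and 14 had 3 or more, or 0.281% (0.154 to 0.471). In sonKD 2384 had 0, 303 had 1, 25 had 2 and 19 had 3 or more, or 0.696% (0.419 to 1.08). The highest cell had 20 UMIs in control and 34 in sonKD. Just inside the line of 3 UMIs were 6 control and 5 sonKD cells with exactly 3. The median depth before thinning of all cells with 3 or more was 8318 UMIs in control, above the 7756 of cells with 0. In sonKD it was 9646 UMIs, below the 11616 of cells with 0. Cells with 3 or more had medians of 3.94% and 4.16% mitochondrial UMIs. They numbered under 20 in each library, and the doublet alternative removed none of them.

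The keratin-high cells were high in the other 7 genes in both libraries. S100a6 stood at 94.6 CPM (88.97 to 101) in control cells with 0 keratin UMIs and at 2371 CPM (1889 to 2940) in those with 3 or more. The sonKD values were 202 CPM (191 to 214) and 4168 CPM (3608 to 4791). All 19 keratin-high sonKD cells and 11 of the 14 in control had a UMI of S100a6. Lgals1 stood at 116 and 1171 CPM (841 to 1589) in control and at 156 and 2674 CPM (2229 to 3181) in sonKD. Sfn stood at 56.9 and 1000.0 CPM in control and at 65.1 and 1453 CPM in sonKD, and was found in 8 of 14 and 16 of 19 keratin-high cells.

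The other 4 genes had the same order from fewer UMIs. Cryab stood at 23.5 and 429 CPM in control and at 30.0 and 590 CPM in sonKD. Anxa3 stood at 18.7 and 257 CPM and at 27.5 and 358 CPM. Fgfbp1 stood at 8.53 and 229 CPM in control and at 12.4 and 147 CPM in sonKD, from 8 and 7 UMIs in the keratin-high cells. Phlda1 had 2 and 7 UMIs there, or 57.1 CPM (6.92 to 206) and 147 CPM (59.2 to 304). Among cells with 2 keratin UMIs, S100a6 was found in 17 of the 45 in control and in 9 of the 25 in sonKD, against 15.3% and 23.9% of cells with 0. Phlda1 was found in 3 of the 45 in control and in none of the 25 in sonKD, which allows up to 13.7% of such cells.

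Genes outside the 9 also stood apart in the keratin-high cells. Anxa2 stood at 24.2 CPM in control cells with 0 keratin UMIs and 343 CPM (177 to 599) in keratin-high cells, and at 26.8 and 674 CPM (461 to 951) in sonKD. Actb, beta-actin, stood at 1518 and 3514 CPM and at 1679 and 3916 CPM. Sparc, a matrix glycoprotein, stood at 222 and 971 CPM and at 224 and 1474 CPM. Perp stood at 40.8 and 143 CPM (46.4 to 333) and at 54.0 and 421 CPM (257 to 650). The naive factors Nanog, Tfcp2l1 and Zfp42 had lower values, with intervals that reached those of cells with 0 for Nanog and Tfcp2l1 in sonKD. Nanog stood at 170 and 28.6 CPM (0.72 to 159) in control and at 155 and 63.2 CPM (13.02 to 185) in sonKD, and Zfp42 at 654 and 343 CPM and at 601 and 295 CPM. Tfcp2l1 stood at 345 and 114 CPM and at 331 and 168 CPM. Esrrb was found in 3 of 14 keratin-high control cells, or 21.4% (4.66 to 50.8), and 3 of 19 in sonKD, or 15.8% (3.38 to 39.6). Among cells with 0 it was found in 27.5% and 24.8%, inside those intervals. Sox2 was found in 7 of 14 in control, against 56.4% of cells with 0, and in 4 of 19 in sonKD, against 56.9%. Klf4 was found in none of the 14 or 19 keratin-high cells, which allows up to 23.2% and 17.6% of such cells, and in 27.7% and 27.0% of cells with 0. Pou5f1 was found in 11 of 14 and 12 of 19 keratin-high cells, at 829 CPM (555 to 1190) and 590 CPM (392 to 852), against 1099 and 900.0 CPM in cells with 0.

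**Figure D5:**
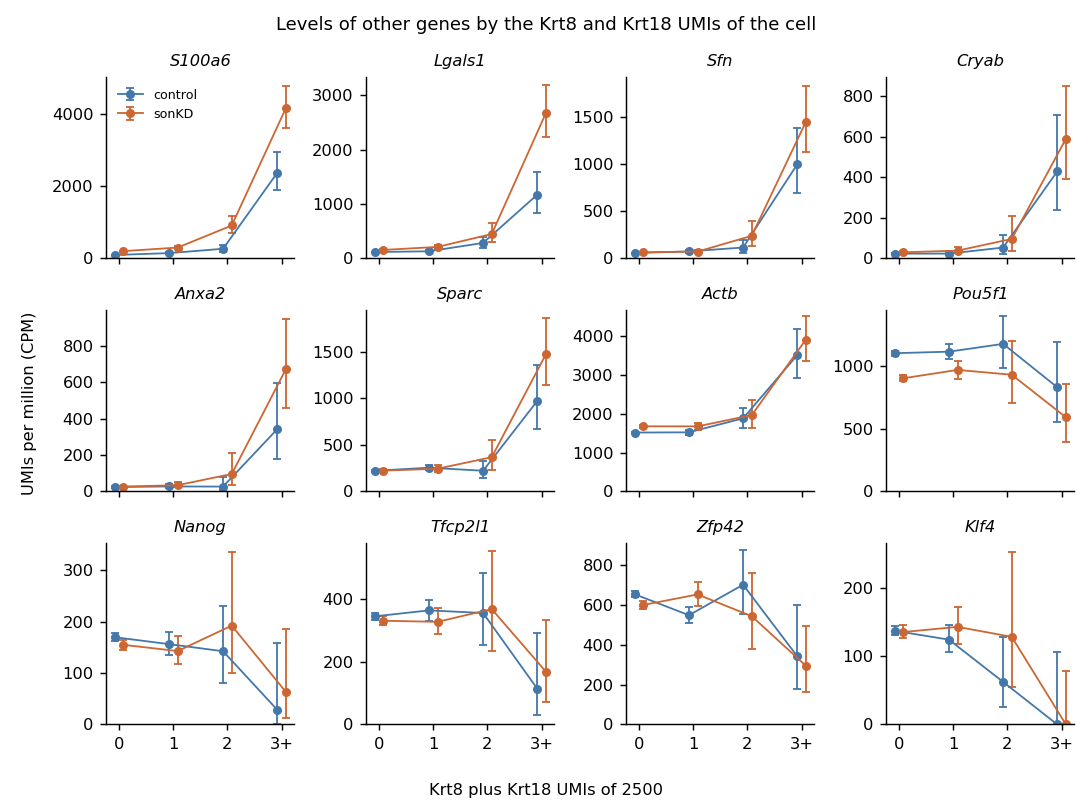
Levels in CPM of 12 genes in cells with 0, 1, 2 or 3 and more Krt8 and Krt18 UMIs of 2500, in control and sonKD, with 95% Poisson intervals. S100a6, Lgals1, Sfn, Cryab, Anxa2, Sparc and Actb are highest in the cells of 3 and more (14 in control, 19 in sonKD), where Klf4 is at 0 in both libraries.

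Markers of other cell types were looked up in the keratin-high cells as measured facts, and their part in the results was not tested. Of 14 trophectoderm markers, 3 had a UMI in control, 5 UMIs in all, and 7 had one in sonKD, 17 in all. Cdx2 had 0 UMIs in control and 3, in 2 cells, in sonKD, and Gata3 had 0 in both. All other sonKD cells together also had 3 Cdx2 UMIs. Hand1 had 2 UMIs in the keratin-high sonKD cells and 0 in the other sonKD cells, and Tfap2c had 3 and 65. In control, Hand1 and Tfap2c had 0 in keratin-high cells, and Gata2, Elf5, Eomes and Tfap2a had 0 there in both libraries. Krt7 and Krt19, keratins of the same list, had 1 and 3 UMIs in control and 2 and 5 in sonKD. Over the whole list, the summed level was 56.8 CPM in cells with 0 keratin UMIs and 143 CPM (46.4 to 333) in keratin-high cells in control, and 54.5 and 358 CPM (208 to 573) in sonKD. Of 15 primitive endoderm markers, 2 and 4 had a UMI, with 34 of 35 and 70 of 78 UMIs from Sparc, and Gata4, Gata6 and Sox17 were at 0. Of 14 fibroblast markers, 1 had a UMI in each library, with 1 UMI each, and Col1a1 was at 0.

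S100a6 alone gave a broader class of cells. Cells with 5 or more S100a6 UMIs of 2500 were 42 in control and 92 in sonKD. Sfn stood at 44.3 CPM in control cells with 0 S100a6 UMIs and at 667 CPM in those with 5 or more, and at 37.4 and 617 CPM in sonKD. Fgfbp1 stood at 6.32 and 190 CPM and at 9.002 and 104 CPM, and Perp at 33.4 and 152 CPM and at 40.3 and 217 CPM. Pou5f1 stood at 1093 and 1152 CPM in control and at 903 and 904 CPM in sonKD. The intervals of Sfn in cells with 0 S100a6 UMIs, 40.4 to 48.6 CPM in control and 32.3 to 43.1 CPM in sonKD, overlapped, while its whole-library level was higher in sonKD. Sfn went with S100a6 over cells, so taking only cells with 0 S100a6 UMIs lowers Sfn by construction. Cells with an S100a6 UMI, left out here, were 16.1% in control and 25.2% in sonKD. In which cells the Sfn difference lies was not tested.

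Within each library, the 9 genes were also set against the Son UMIs of the cell. In sonKD their summed level was 716 CPM (694 to 739) in the 2153 cells with 0 Son UMIs of 2500, 601 CPM (558 to 646) in the 488 cells with 1, and 444 CPM (362 to 541) in the 90 cells with 2 or more. In control it was 416 CPM (402 to 430) in 3290 cells with 0, 422 CPM (400.3 to 445) in 1345 cells with 1, and 388 CPM (348 to 432) in 343 cells with 2 or more. The intervals of the 3 control values overlapped and those of the 3 sonKD values did not, but they cover counting error only. Over all thinned sonKD cells the summed UMIs of the 9 genes had a variance over mean of 10.07. Intervals that allow for this spread between cells would be wider and were not made. Whether the 3 sonKD values differ beyond that spread cannot be told from these intervals. No test of the difference between the libraries was made.

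Related families were counted from lists that, like the 9 genes, were drawn up with earlier results known. The 9 genes themselves are not in these counts. Of 6 keratins and other intermediate filament genes at 10 CPM or more, none was 1.3-fold higher or lower, and the median log2 ratio was -0.08. Krt17 stood at -0.28 (-0.39 to -0.16) and the muscle filament gene Des at -0.24 (-0.34 to -0.15). Below the minimum level, Krt19 stood at 4.38 and 4.99 CPM, and Krt7 had 6 UMIs in control and 23 in sonKD. Of 18 genes of epithelial junctions, Perp at 0.47 was the 1 past 1.3-fold, with Epcam next at 0.33 (0.25 to 0.40) and a median of -0.10. Cdh1, E-cadherin, stood at 83.5 and 74.6 CPM, a ratio of -0.16 (-0.24 to -0.09).

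Close relatives of the 9 genes were read against the median of all genes, -0.12. Both other S100 genes at the minimum level were above it, S100a11 at 0.58 (0.52 to 0.65) and S100a10 at 0.27. S100pbp, which encodes an S100P-binding protein and is no S100 gene, was counted in the same list and stood at -0.40. The median of 6 other annexins was -0.08, with Anxa11 lower at -0.43 (-0.57 to -0.29) and Anxa2 at 0.26 (0.13 to 0.39). Lgals3, the other galectin at the minimum level, stood at 0.07. All 6 other 14-3-3 genes had ratios below 0, with a median of -0.09 and Ywhag at -0.18. Of 3 small heat shock genes, Hspb11, which encodes an intraflagellar transport protein, was higher at 0.60 (0.42 to 0.79), Hspb2, which overlaps Cryab, stood at 0.32, and Hspb1 at -0.03. Phlda2 and Phlda3 stood at -0.20 and -0.10.

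Target genes of pathways in which the 9 genes are known were read against the 2.64% of all genes that were 1.3-fold higher and the 6.02% that were lower. Of 14 FGF and ERK response genes, none was higher and the immediate early gene Egr1 was lower, at -0.50 (-0.67 to -0.33), with Fgfr2 at -0.32 and a median of -0.13. Of 11 targets of YAP and SRF, Flna was lower at -0.42 (-0.53 to -0.32), with Amotl2 at -0.17. Of 21 p53 targets, Perp and Ddit4l, at 0.41 (0.27 to 0.56), were higher, and the median was 0.04. Cdkn1a stood at 50.9 and 48.7 CPM, a ratio of -0.06 (-0.16 to 0.03). Of 4 mesenchymal genes none passed the line, with Fn1 at -0.31 and Zeb1 at -0.21, and Vim stood at 222 and 214 CPM.

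Markers of stem cell state and of other cell types were also read at library level. Of 16 naive genes none was 1.3-fold apart, with a median of -0.10, Prdm14 at -0.35 and Nr5a2 at -0.33, while the whole list of 17 summed to 9676 CPM in control and 10316 CPM in sonKD. Dppa5a, named after its values were seen, stood at 0.27 (0.26 to 0.28). Of 8 formative genes none was, with Pou3f1 and Sox4 each at -0.31. Esrrb stood at -0.11, Klf4 at -0.04 and Tfcp2l1 at -0.06. Tead4, the 1 trophectoderm gene at the minimum level, stood at -0.15, and the whole list of 14 summed to 56.7 and 55.4 CPM, with Elf5 at 0 UMIs. The 15 primitive endoderm genes summed to 304 and 295 CPM, with Col4a1 at -0.35 and Lama1 at -0.33, and Gata4, Gata6 and Sox17 at 115, 29 and 3 UMIs in control and 75, 17 and 4 in sonKD. The 14 fibroblast genes summed to 8.46 and 8.87 CPM, with none at the minimum level. Nodal was lower at -0.39 (-0.51 to -0.26), and the neural genes Ncam1 and Tubb3 stood at -0.34 and -0.05.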

How the data were processed

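Single-cell RNA was measured in 1 control and 1 sonKD library, grouped by the sample titles. The deposited values are UMI counts, which the authors made with Cell Ranger 7.1.0, per the file headers. The build mm10 is named in the submitters' processing notes. The annotation and the handling of intronic reads are not given in the sources used here, and the files list barcodes without a selection of cells. The libraries held 71046373 and 60352438 UMIs over 1408944 and 1400093 barcodes.

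Counts were summed over kept cells with Python 3.11.15, numpy 2.4.6, pandas 2.3.3 and scipy 1.17.1. No test was made and no p-value is given. Intervals at 95% are exact Poisson for levels, exact conditional binomial for ratios and exact binomial (Clopper-Pearson) for shares. The interval of a difference of shares combines both shares' bounds. Doublets were kept: Scrublet in scanpy 1.11.5 called 3 and 1 cells, or 0.0603% and 0.0366%, too few for a working call. TMM factors came from edgeR 4.0.16 and serve 1 alternative. The thinning and the ratios were tested on simulated data.

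The members and lists were chosen with earlier results of these data known. Named genes are the 9 members, Son, the 5 genes most like each member and the 10 most like their sum (among genes with a UMI in at least 5% of thinned cells of each library), the 2 genes of each list farthest from 0 at 10 CPM or more, and a set of keratin, junction, lineage, pluripotency and p53 genes named whatever their values. S100a10, Hspb1 and Dppa5a were named after their values were seen. No column held a sample outside the series.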

Additional observations from a re-analysis of the deposited data

Results flagged for a closer look

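The barcodes left out for more than 10% mitochondrial UMIs, 625 in control and 1056 in sonKD, also held molecules of the 9 genes. S100a6 stood at 115.8 CPM (105 to 127) in the sonKD barcodes against 63.3 CPM (52.7 to 75.4) in control. Cryab stood at 19.8 CPM (15.5 to 24.9) in the sonKD barcodes against 8.61 CPM (5.01 to 13.8) in control. Both values stand here because they come from barcodes that no comparison used and their intervals lie above those of control. In these barcodes 7 of the 9 genes were higher in sonKD, 2 of them with intervals apart, and Sfn and Anxa3 were lower. The share of all genes that were higher in these barcodes was not counted, so the 7 cannot be set against it.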

How the results depend on the processing

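No paired analysis was possible because each group held 1 sample. Under the 9 planned settings for cells, scaling, pseudocount and free RNA, all 9 genes stayed above 0 and 7 were past 1.3-fold. TMM factors moved the median of all genes by 0.090. Leaving out cells of 3 or more keratin UMIs, chosen after the data were seen, gave Krt8 a log2 ratio of -0.060, a median of 0.38 and 4 genes past 1.3-fold (S100a6, Lgals1, Fgfbp1 and Phlda1). At 1.5-fold 3 of the 9 genes passed, against 0.992% of all genes. With a minimum of 50 CPM, which only S100a6, Lgals1 and Sfn of the 9 reached, 2 genes passed 1.3-fold, against 4.15%. With no minimum CPM 7 passed 1.3-fold, against 11.01% of genes with at least 3 UMIs over both libraries. The r of Krt8 with Krt18 in control was 0.084 at up to 5% mitochondrial UMIs, 0.056 by Spearman's rho and 0.036 without keratin-high cells, and in sonKD 0.14 by rho and 0.037 without those cells. Of 50 alternative share differences, 29 stayed within the interval of the value given and 21 did not.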
